A study of Mus musculus with 6 samples.

Results

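The 44 genes described here encode the proteins that copy DNA in S phase and supply its building blocks. They are the subunits that mark and license origins, the MCM helicase and its activators, the sliding clamp and its loader, the replicative polymerases, the single-strand binding protein, the enzymes that join Okazaki fragments, 4 enzymes of deoxynucleotide synthesis and 2 subunits of chromatin assembly factor 1. They were chosen by symbol, as the rows of the count table that carry 1 of 44 listed gene symbols. Each symbol had exactly 1 row among the 38561 genes of the table, and 43 of the 44 members passed the filter on low counts and were tested. The exception was Fen1.

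Origins of replication are licensed when the origin recognition complex, Cdc6 and Cdt1 load the ring of MCM proteins onto DNA, and geminin blocks Cdt1 from doing so again in the same cycle. Cdc45, the GINS complex and polymerase epsilon turn the loaded ring into a moving helicase, behind which polymerase alpha with primase starts each strand and polymerases delta and epsilon extend it. Mouse embryonic stem cells (ESCs) are known for a short cycle spent largely in S phase, and many genes of this group are known targets of the E2F transcription factors.

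The data are RNA sequencing counts from cultures of undifferentiated mouse ESCs (strain 129X1/SvJ x 129S1/Sv) at passages 13 to 17, grown without feeder cells on gelatin with leukemia inhibitory factor and serum replacement. Cells were sorted by flow cytometry on PECAM1, a cell adhesion protein, and on PDGFRa, a growth factor receptor, and total RNA of 100000 sorted events per library was amplified before sequencing. The 3 fractions are PECAM1-only (positive for PECAM1 and negative for PDGFRa), double-positive, and PDGFRa-only, with 2 libraries each. The series asks how PDGFRa-positive cells of ESC cultures relate to primitive endoderm, the extraembryonic lineage that forms beside the epiblast in the blastocyst.

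The 6 libraries held between 4809661 and 7273669 counts. The sorting genes followed their gates: Pecam1 had a mean of 154 CPM (normalised read counts relative to library size) in the PECAM1-only fraction and 1.54 CPM in the PDGFRa-only fraction, and Pdgfra 1.95 and 556 CPM. The 8 pluripotency markers summed to 1469 and 1529 CPM in the PECAM1-only, 570 and 499 CPM in the double-positive and 261 and 209 CPM in the PDGFRa-only libraries. The 10 primitive endoderm markers ran the other way, with 75.3 and 95.5 CPM, 16010 and 17097 CPM, and 24428 and 24989 CPM, so the label of an undifferentiated culture covers fractions with very different marker levels. Markers of other cells were near 0 in every library: 6 mesenchymal markers summed to 2.47 to 7.53 CPM, 4 trophoblast markers to 0.753 to 3.28 CPM, and 6 endothelial and blood markers to at most 1.74 CPM, with 3 of those 6 at 0 counts in all libraries. In bulk libraries like these, fewer cells of a type (here cells in S phase) and less RNA per cell cannot be told apart. The labels do not say whether libraries 1 and 2 of a fraction come from separate cultures, so each p measures the spread between these libraries alone.

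Replication genes as a group were lower in the PDGFRa-positive fractions. The 44 members together reached 5093 and 5033 CPM in the PECAM1-only libraries, 3779 and 3534 CPM in the double-positive libraries and 3201 and 3246 CPM in the PDGFRa-only libraries. The groups did not overlap. The means of the double-positive and PDGFRa-only fractions were 72.2% and 63.7% of the PECAM1-only mean. As a share of the raw counts, with no scaling, the members took 0.571% and 0.565% of the PECAM1-only libraries, 0.367% and 0.341% of the double-positive libraries and 0.297% and 0.296% of the PDGFRa-only libraries.

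In the PDGFRa-only fraction against the PECAM1-only fraction, 24 of the 43 tested members were lower, 2 were higher (Cdc6 and Tk1) and 17 did not pass edgeR's quasi-likelihood test at an adjusted p of 0.05. Of all 13909 genes tested, 28.8% were called lower and 30.1% higher, against 55.8% and 4.65% of the members. The median log2 fold change of the tested members was -0.54 (1.45-fold lower), beside 0.01 over all tested genes, and 33 of the 43 values were negative. Both PDGFRa-only libraries lay below both PECAM1-only libraries for 29 of the 43 members and above them for 3, where 38.9% and 39.0% of all tested genes did so. Of the 26 calls, 19 were kept in all 17 alternative settings, and 8 of the 17 members without a call passed as lower in at least 1 of them. Scaling bears on the counts: with library size alone, without the trimmed mean of M-values (TMM), the median of all genes moved to -0.28, the higher share of all called genes from 51.1% to 37.9%, and 31 members were lower and 2 higher. Besides Cdc6 and Tk1, 8 members had positive values (0.02 to 0.19, none past the test), and with library-size scaling all 8 were negative (-0.27 to -0.10).

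**Figure D1:**
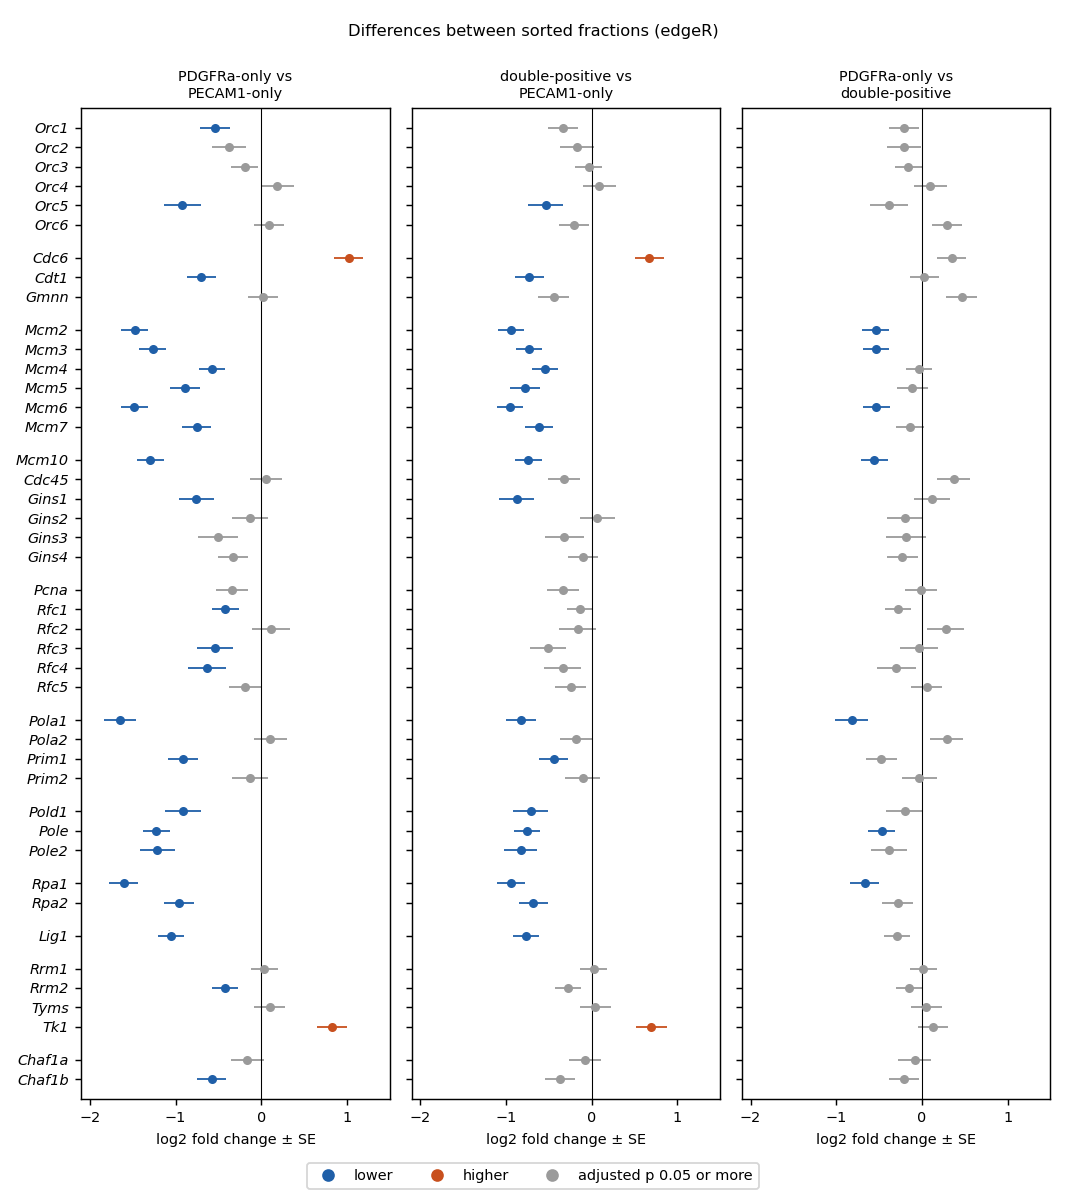
Log2 fold change with its standard error (x axis) of the 43 tested members (y axis, grouped by role) in the 3 comparisons, from edgeR; blue symbols are lower and orange symbols higher at an adjusted p below 0.05, grey symbols did not pass. In the left panel 24 members lie below 0 in blue and Cdc6 and Tk1 lie above 0 in orange; in the right panel 7 members are blue and none is orange.

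The MCM2-7 helicase, the ring that unwinds DNA at the fork, was lower in every subunit: all 6 subunits passed in the PDGFRa-only against the PECAM1-only fraction, with log2 fold changes from -1.48 to -0.58. Mcm6 (ENSMUSG00000026355, chr1:128331590-128359664 on the minus strand, GRCm38) had 293 and 276 CPM in the PECAM1-only libraries, 158 and 136 CPM in the double-positive libraries and 100 and 103 CPM in the PDGFRa-only libraries. The 3 fractions were separate at every step, and the PDGFRa-only mean was 2.80-fold lower than the PECAM1-only mean (log2 fold change -1.48 ± 0.16 SE, edgeR adjusted p = 6.77e-08). Mcm2 had 388 and 348 CPM in the PECAM1-only, 199 and 185 CPM in the double-positive and 139 and 126 CPM in the PDGFRa-only libraries, 2.78-fold lower (-1.48 ± 0.16, edgeR adjusted p = 7.03e-08). Mcm3 had 288 and 287 CPM, 184 and 162 CPM, and 115 and 123 CPM in the same order, 2.41-fold lower (-1.27 ± 0.16, edgeR adjusted p = 5.11e-07).

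The other subunits had smaller differences and another pattern over the fractions. Mcm4 had 318 and 299 CPM in the PECAM1-only libraries, 212 and 211 CPM in the double-positive libraries and 200 and 214 CPM in the PDGFRa-only libraries. The PDGFRa-positive fractions overlapped each other and both lay below the PECAM1-only fraction (1.49-fold lower in the PDGFRa-only fraction, -0.58 ± 0.15, edgeR adjusted p = 0.00252). Mcm5 was 1.85-fold lower (-0.89 ± 0.18, edgeR adjusted p = 0.000229) and Mcm7 was 1.69-fold lower (-0.76 ± 0.17, edgeR adjusted p = 0.00052), and for both the PDGFRa-only and double-positive libraries overlapped. A processed copy of Mcm4 at another locus, Gm9577, held 171 counts beside 9119 for Mcm4, and adding it ended no call.

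The 6 subunits form a ring with 1 copy of each, but their levels per kb of exon were not equal. The length used merges all annotated exons of a gene: 3589 bases for Mcm4, 4426 for Mcm7 and 6956 for Mcm2. The longest coding transcript of Mcm7 has 2962 bases, so the order and spread of the subunits may change with the length used. Per kb of exon, Mcm4 was highest in all 3 fractions, at 85.9 CPM per kb in the PECAM1-only, 59.0 in the double-positive and 57.6 in the PDGFRa-only fraction. The lowest was Mcm7 in the PECAM1-only (35.0 CPM per kb) and double-positive (22.8 CPM per kb) fractions and Mcm2 in the PDGFRa-only fraction (19.0 CPM per kb). The highest subunit was 2.45-fold above the lowest in the PECAM1-only, 2.59-fold in the double-positive and 3.03-fold in the PDGFRa-only fraction. Within a library, the ratio of raw Mcm2 to Mcm4 counts was 1.22 and 1.16 in the PECAM1-only, 0.939 and 0.876 in the double-positive and 0.696 and 0.588 in the PDGFRa-only fraction, with no overlap between fractions. This ratio needs no scaling between libraries; it was chosen after the values were seen and carries no test.

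**Figure D2:**
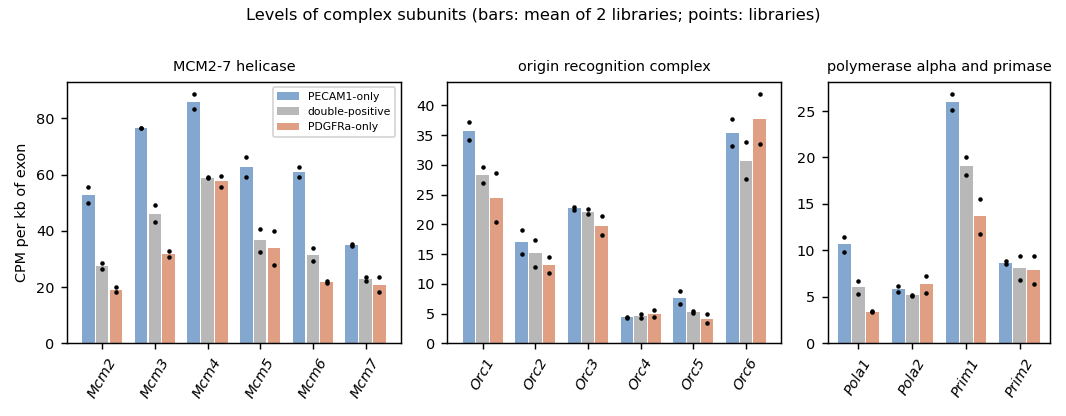
Level in CPM per kb of exon (y axis, from 0; all annotated exons of a gene merged) of the subunits of 3 complexes (x axis) in each fraction. Bars are means of 2 libraries and points are the libraries. All 6 MCM bars are lower in the double-positive and PDGFRa-only fractions, the Orc4 and Pola2 bars stay close together, and Mcm4 is the highest MCM subunit in each fraction.

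The promoters of 7 members are shown as examples in each direction: MCM subunits and Pola1 among the lower genes with an E2F-type motif, Rpa1 among the lower genes without one, and the higher genes Cdc6 and Tk1. The MCM promoters shown are ones that hold a match. Mcm2, with a larger fall (-1.48) than Mcm5 and Mcm7, had a promoter entry without a match and is not shown. The sequences are the 200 bases before the RefSeq start (build GRCm38.p6), 5′ to 3′ on the strand of the gene, with capitals for matches to the 8-base motifs TTTCCCGC, TTTGGCGC, TTTCGCGC and TTTGCCGC or their reverse complements. Where matches on opposite strands overlap, as in Mcm5 and Mcm6, the capitals run through both.
Mcm5: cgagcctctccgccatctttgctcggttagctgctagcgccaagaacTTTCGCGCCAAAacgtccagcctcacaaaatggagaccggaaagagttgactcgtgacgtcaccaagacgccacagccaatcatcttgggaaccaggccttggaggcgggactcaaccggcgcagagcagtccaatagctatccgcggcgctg
Mcm6: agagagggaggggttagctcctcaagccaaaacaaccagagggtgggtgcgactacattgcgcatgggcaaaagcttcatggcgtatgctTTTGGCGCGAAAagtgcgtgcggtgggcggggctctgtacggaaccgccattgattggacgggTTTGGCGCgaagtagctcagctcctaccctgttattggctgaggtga
Mcm7: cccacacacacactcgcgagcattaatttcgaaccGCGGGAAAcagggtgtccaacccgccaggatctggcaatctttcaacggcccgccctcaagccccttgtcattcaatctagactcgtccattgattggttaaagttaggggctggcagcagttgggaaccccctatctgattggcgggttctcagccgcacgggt
Pola1: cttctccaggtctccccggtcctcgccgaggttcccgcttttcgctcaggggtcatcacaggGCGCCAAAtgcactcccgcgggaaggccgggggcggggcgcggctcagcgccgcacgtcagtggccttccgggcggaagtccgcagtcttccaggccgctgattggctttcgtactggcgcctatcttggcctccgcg
Cdc6: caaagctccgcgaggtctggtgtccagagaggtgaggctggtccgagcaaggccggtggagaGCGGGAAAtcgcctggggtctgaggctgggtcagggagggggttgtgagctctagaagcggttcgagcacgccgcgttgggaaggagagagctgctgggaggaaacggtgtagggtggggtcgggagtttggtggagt
Rpa1: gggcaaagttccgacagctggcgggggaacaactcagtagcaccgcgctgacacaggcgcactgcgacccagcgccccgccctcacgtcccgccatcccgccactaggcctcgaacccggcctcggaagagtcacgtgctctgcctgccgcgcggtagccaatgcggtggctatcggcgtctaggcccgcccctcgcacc
Tk1: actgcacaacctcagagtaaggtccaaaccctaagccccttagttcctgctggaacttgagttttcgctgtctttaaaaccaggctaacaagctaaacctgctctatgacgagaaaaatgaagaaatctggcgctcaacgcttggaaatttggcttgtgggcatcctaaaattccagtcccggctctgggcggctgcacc

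The stretches lie at chr8:75109309-75109508 on the plus strand for Mcm5, chr1:128359706-128359905 on the minus strand for Mcm6 and chr5:138171884-138172083 on the minus strand for Mcm7, which has 2 RefSeq starts and a further match just after this one. Pola1 lies at chrX:93632156-93632355 (minus), Cdc6 at chr11:98907951-98908150 (plus), Rpa1 at chr11:75348384-75348583 (minus) and Tk1 at chr11:117826015-117826214 (minus). By the gene coordinates used here, the Cdc6 stretch (gene from 98907801) and the Mcm7 stretch (gene up to 138172422) lie inside the gene. The Tk1 stretch does so in part (gene up to 117826092). The printed matches of Cdc6 and Mcm7 thus precede a RefSeq start but follow the outermost annotated start. Of the 44 members, 36 had a promoter entry of 300 bases (250 before and 50 after the start). A match to at least 1 of the 4 motifs, on either strand, stood in 14 of these 36 (38.9%), where 704 of all 27025 genes with an entry held one (2.605%). By the calls of the PDGFRa-only against PECAM1-only comparison, the motifs stood in 11 of 21 lower members, in 1 of 2 higher members (Cdc6) and in 2 of 12 members that did not pass (Orc3 and Gins3). TTTCCCGC alone stood in 4 of the 21 and 2 of the 12, TTTGGCGC and TTTCGCGC each in 6 and 0. In the lists described below, a match stood in 9 of 34 other replication, 2 of 35 other nucleotide, 6 of 14 E2F and RB and 1 of 24 mitosis genes. The motif TTTGCCGC matched in none of the 36. A match is a run of letters, not a bound site, and these counts were not tested.

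**Figure D3:**
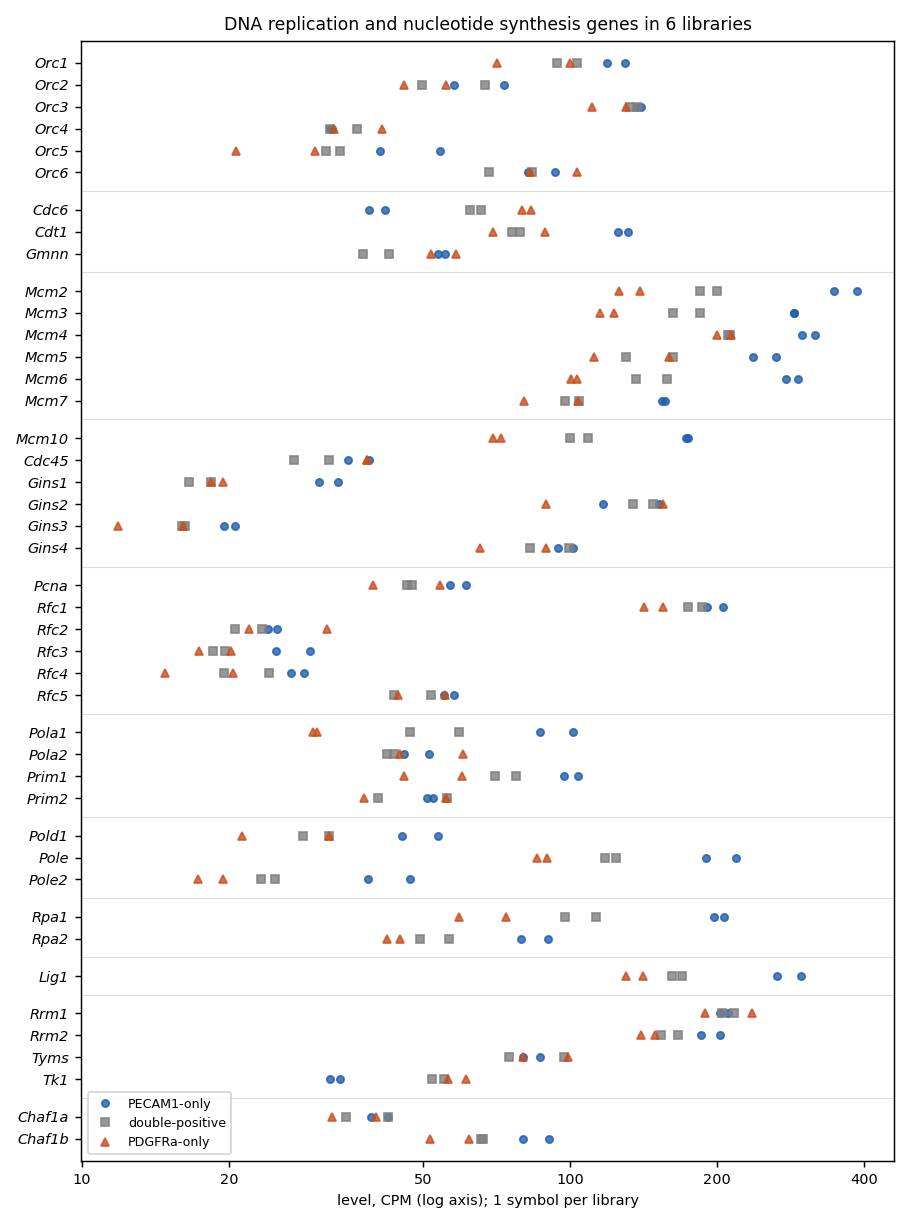
Level of each tested member (y axis, grouped by role) in each of the 6 libraries (x axis, CPM on a log axis); circles are PECAM1-only, squares double-positive and triangles PDGFRa-only libraries. Most circles lie to the right of the triangles in a row; Cdc6 and Tk1 show the opposite order, and Rrm1, Tyms and Gins2 overlap. Fen1, which was not tested, is left out.

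Licensing genes did not share a direction. The origin recognition complex binds origins and recruits the loaders, and 2 of its 6 genes were lower in the PDGFRa-only against the PECAM1-only fraction. That share of 33.3% was near the 28.8% of all tested genes called lower there. Orc5 had 54.0 and 40.8 CPM in the PECAM1-only, 33.7 and 31.7 CPM in the double-positive and 30.0 and 20.6 CPM in the PDGFRa-only libraries (1.89-fold lower, -0.92 ± 0.21, edgeR adjusted p = 0.000913). Orc1, the subunit whose protein rises and falls with the cycle in many cells, had 129 and 119 CPM, 103 and 94.1 CPM, and 70.7 and 99.7 CPM in the same order (-0.54 ± 0.18, edgeR adjusted p = 0.0123). The PDGFRa-only libraries of Orc1 stood far apart, and its call was lost without PDGFRa-only library 1 (edgeR adjusted p = 0.142) and without PECAM1-only library 1 (edgeR adjusted p = 0.0911). Orc2, Orc3, Orc4 and Orc6 did not pass, with log2 fold changes of -0.38, -0.20, 0.19 and 0.08. Orc2 and Orc3 passed as lower with library-size and upper-quartile scaling, and Orc2 also without PDGFRa-only library 1 (-0.51, edgeR adjusted p = 0.0365).

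Cdc6 (ENSMUSG00000017499, chr11:98907801-98923940, plus strand), the ATPase that joins the origin complex and helps load the MCM ring, was the member with the largest rise. It had 41.7 and 38.6 CPM in the PECAM1-only libraries, 65.6 and 62.4 CPM in the double-positive libraries and 83.3 and 79.7 CPM in the PDGFRa-only libraries. The fractions did not overlap, and their means ran in the reverse of the order of the MCM means. The step from the double-positive to the PDGFRa-only fraction did not pass (0.35 ± 0.17, edgeR adjusted p = 0.161). Against the PECAM1-only fraction, Cdc6 was 2.03-fold higher in PDGFRa-only cells (1.02 ± 0.17, edgeR adjusted p = 3.08e-05) and 1.59-fold higher in double-positive cells (0.67 ± 0.17, edgeR adjusted p = 0.00362). The log2 fold change of the PDGFRa-only fraction stayed between 0.73 and 1.09 in all 17 alternatives. A processed copy of Cdc6 on chromosome X, Gm9430, held 264 counts beside 2253 for Cdc6.

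Cdt1, which loads the ring together with Cdc6, went the other way. It had 125 and 132 CPM in the PECAM1-only, 78.8 and 76.1 CPM in the double-positive and 88.9 and 69.4 CPM in the PDGFRa-only libraries, 1.63-fold lower in the last (-0.70 ± 0.17, edgeR adjusted p = 0.00118). Gmnn, which encodes geminin, the inhibitor of Cdt1, had 53.6 and 55.4 CPM, 42.5 and 37.6 CPM, and 51.9 and 58.3 CPM in the same order. Its PDGFRa-only and PECAM1-only libraries overlapped (0.02 ± 0.18, edgeR adjusted p = 0.93), and the double-positive libraries lay below both (-0.44 ± 0.18 against the PECAM1-only fraction, edgeR adjusted p = 0.054). That last difference passed in 11 of 17 alternatives, among them DESeq2 (adjusted p = 0.0499), the 3 other scalings and both fits of RPKM.

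Of the factors that activate the helicase, Mcm10 and Gins1 were lower and 4 did not pass, a lower share of 33.3%, near the 28.8% of all tested genes. Mcm10, which helps start unwinding, had 174 and 173 CPM in the PECAM1-only, 109 and 99.7 CPM in the double-positive and 72.1 and 69.4 CPM in the PDGFRa-only libraries, in 3 separate steps (2.45-fold lower, -1.30 ± 0.16, edgeR adjusted p = 5.04e-07). Cdc45, a core part of the moving helicase, had 38.8 and 35.0 CPM, 32.0 and 27.1 CPM, and 38.3 and 38.3 CPM in the same order, and its outer fractions overlapped (0.05 ± 0.19, edgeR adjusted p = 0.828). The GINS complex has 4 subunits, and they differed. Gins1 had 33.4 and 30.6 CPM in the PECAM1-only, 18.4 and 16.5 CPM in the double-positive and 18.4 and 19.4 CPM in the PDGFRa-only libraries (-0.76 ± 0.21, edgeR adjusted p = 0.00351). Gins2, Gins3 and Gins4 did not pass, with log2 fold changes of -0.13, -0.50 and -0.33. Gins3 passed as lower in 6 and Gins4 in 5 of 17 alternatives, both on RPKM, where Gins4 reached -0.72 (limma adjusted p = 0.0175). Gins2 had 89.3 and 155 CPM in the PDGFRa-only libraries, and its value was -0.58 without library 2 (edgeR adjusted p = 0.00695) and 0.22 without library 1. Gins2 shared 67.3% of its exon bases with Gse1 on the opposite strand, and since the strand setting of the authors' counting is not stated, its 5008 counts cannot be assigned to Gins2 with certainty.

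Polymerase alpha with primase makes the primers from which both strands start, and its 4 genes split by subunit. Pola1 (ENSMUSG00000006678, chrX:93304767-93632155, minus strand), the catalytic subunit of polymerase alpha, had the largest fall of the tested members. It had 86.8 and 101 CPM in the PECAM1-only libraries, 47.1 and 59.1 CPM in the double-positive libraries and 29.8 and 30.3 CPM in the PDGFRa-only libraries. No libraries of different fractions overlapped, and the PDGFRa-only fraction was 3.13-fold lower than the PECAM1-only fraction (-1.64 ± 0.19, edgeR adjusted p = 1.75e-07). Pola2, its accessory subunit, had 45.7 and 51.4 CPM, 43.5 and 42.1 CPM, and 60.4 and 44.7 CPM in the same order (0.11 ± 0.19, edgeR adjusted p = 0.646). Prim1, the catalytic primase subunit, fell 1.89-fold (-0.92 ± 0.18, edgeR adjusted p = 0.000147), while the values of Prim2, the large primase subunit, overlapped (-0.13 ± 0.21, edgeR adjusted p = 0.606).

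The 3 members that belong to the extending polymerases were lower. Pole, the catalytic subunit of polymerase epsilon, which copies the leading strand, had 218 and 190 CPM in the PECAM1-only, 118 and 124 CPM in the double-positive and 89.5 and 85.4 CPM in the PDGFRa-only libraries (2.34-fold lower, -1.22 ± 0.16, edgeR adjusted p = 1.12e-06). Its partner Pole2 was 2.32-fold lower (-1.21 ± 0.21, edgeR adjusted p = 3.33e-05). Pold1, the catalytic subunit of polymerase delta, which copies the lagging strand, was 1.88-fold lower (-0.91 ± 0.21, edgeR adjusted p = 0.000904). Of 5 further subunits outside the members, named after their values were seen, Pole4, Pold2 (-0.65) and Pold3 (-0.42) were lower too (edgeR adjusted p = 0.000298, 0.0116 and 0.0404), Pole4 with 33.0 and 38.3 CPM in the PECAM1-only and 18.8 and 16.9 CPM in the PDGFRa-only libraries, and Pole3 did not pass (0.13). Pold4, a small subunit of polymerase delta, was higher, at a low level of 0.726 and 2.50 CPM in the PECAM1-only and 8.06 and 7.83 CPM in the PDGFRa-only libraries (2.31 ± 0.44, edgeR adjusted p = 0.000128). Summed, the 3 members reached 59.2% of their PECAM1-only level in double-positive and 44.7% in PDGFRa-only libraries.

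The 2 members of the single-strand binding protein and the ligase were among the members with large falls. Rpa1 (ENSMUSG00000000751, chr11:75298166-75348324, minus strand), the large subunit of the protein that coats unwound DNA, had 207 and 197 CPM in the PECAM1-only, 113 and 97.7 CPM in the double-positive and 73.9 and 59.1 CPM in the PDGFRa-only libraries, in separate steps (3.05-fold lower, -1.61 ± 0.17, edgeR adjusted p = 5.79e-08). Rpa2, its middle subunit, was 1.95-fold lower (-0.96 ± 0.18, edgeR adjusted p = 8.16e-05). Lig1, the ligase that seals Okazaki fragments, had 266 and 298 CPM, 170 and 161 CPM, and 130 and 141 CPM in the same order (2.08-fold lower, -1.05 ± 0.15, edgeR adjusted p = 5.81e-06).

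Fen1 (ENSMUSG00000024742, chr19:10199132-10204169, minus strand), the nuclease that trims Okazaki fragment flaps had only 8 counts over the 6 libraries, with 0 to 3 per library. It is listed in the count table but was not tested and gives no direction. An antisense gene, Gm10143, covers 78.8% of its exon bases and held 21 counts; whether reads of this locus were set aside as ambiguous in the authors' counting was not tested.

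The clamp did not pass the test, and 3 of the 5 subunits of its loader were lower, where 28.8% of all tested genes were. Pcna, the sliding clamp that tethers the polymerases, had 56.8 and 61.3 CPM in the PECAM1-only, 47.4 and 46.3 CPM in the double-positive and 54.2 and 39.5 CPM in the PDGFRa-only libraries (-0.34 ± 0.19, edgeR adjusted p = 0.123). A processed pseudogene on chromosome 19, Pcna-ps2, matches the Pcna transcript over 781 bases at 99.2% identity and held 2494 counts, more than the 1886 of Pcna itself. Pcna alone passed without PDGFRa-only library 1 (-0.56, edgeR adjusted p = 0.0157) and with library-size or upper-quartile scaling, and was -0.12 without library 2. Pcna-ps2 alone was lower (-0.50, edgeR adjusted p = 0.014). With the counts of both rows added, a setting chosen after the data were seen, the difference passed (-0.43, edgeR adjusted p = 0.0236). Of the 5 loader subunits, Rfc1 (-0.42 ± 0.15), Rfc3 (-0.54 ± 0.21) and Rfc4 (-0.64 ± 0.22) were lower, with edgeR adjusted p = 0.0235, 0.0358 and 0.019, and Rfc2 (0.11) and Rfc5 (-0.19) did not pass. Rfc5 passed in 3 of 17 alternatives, with library-size scaling and both fits of RPKM. Rfc4 shared 12.7% of its exon bases with Eif4a2 on the opposite strand, which held 16077 counts beside 847 for Rfc4. Since the strand setting of the counting is not stated, the counts of Rfc4 cannot be assigned to it with certainty. The call of Rfc3 was lost in 9 of 17 alternatives, among them DESeq2 (adjusted p = 0.0822) and both fits of RPKM, that of Rfc1 in 6 and that of Rfc4 in 3. Without single libraries the values reached an edgeR adjusted p of 0.153 for Rfc1 without PECAM1-only library 1, 0.227 for Rfc3 without PECAM1-only library 2 and 0.132 for Rfc4 without PDGFRa-only library 1.

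Deoxynucleotide synthesis stood at nearly the same summed level in the 3 fractions after TMM scaling. The 4 genes summed to 507 and 527 CPM in the PECAM1-only, 520 and 501 CPM in the double-positive and 489 and 520 CPM in the PDGFRa-only libraries, means of 98.7% and 97.6% of the PECAM1-only level. Rrm1, the large subunit of ribonucleotide reductase, had 203 and 211 CPM, 217 and 204 CPM, and 189 and 235 CPM in the same order (0.04 ± 0.16, edgeR adjusted p = 0.854). Tyms, which makes thymidylate from deoxyuridylate, had 86.7 and 80.2 CPM, 97.1 and 75.0 CPM, and 98.9 and 80.0 CPM (0.10 ± 0.18, edgeR adjusted p = 0.661). Both overlapped across all fractions, and both values were negative with library-size scaling (-0.25 and -0.19), where they again did not pass.

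The remaining 2 genes of this step differed in direction. Rrm2, the small reductase subunit whose level limits the enzyme in S phase, had 185 and 202 CPM in the PECAM1-only, 154 and 166 CPM in the double-positive and 140 and 149 CPM in the PDGFRa-only libraries (1.34-fold lower, -0.42 ± 0.15, edgeR adjusted p = 0.0225). Its call was lost without PECAM1-only library 2 (edgeR adjusted p = 0.145) and, narrowly, in 4 other settings. Tk1 (ENSMUSG00000025574, chr11:117815526-117826092, minus strand), the cytosolic thymidine kinase of the salvage pathway, had 32.2 and 33.8 CPM, 52.1 and 55.1 CPM, and 61.1 and 56.2 CPM in the same order. Both PDGFRa-positive fractions lay above the PECAM1-only fraction. PDGFRa-only libraries were 1.77-fold higher (0.83 ± 0.18, edgeR adjusted p = 0.000437) and double-positive libraries 1.62-fold higher (0.70 ± 0.18, edgeR adjusted p = 0.00348). In the deposited RPKM table the rise of Tk1 was smaller and did not pass (0.29 and 0.30 on the log2(RPKM + 1) scale, limma adjusted p = 0.0964 and 0.121).

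Chromatin assembly factor 1 places new histones behind the fork. Chaf1b, its middle subunit, had 80.0 and 90.5 CPM in the PECAM1-only, 66.4 and 65.7 CPM in the double-positive and 51.7 and 61.9 CPM in the PDGFRa-only libraries (-0.58 ± 0.17, edgeR adjusted p = 0.00644). Without PECAM1-only library 2 that call was lost (edgeR adjusted p = 0.0719). Chaf1a, its large subunit, did not pass (-0.16 ± 0.19), but did so on RPKM (-0.61, limma adjusted p = 0.0244 with RPKM + 1) and with library-size scaling (-0.45, edgeR adjusted p = 0.0472), and 52.5% of its exon bases overlap Ubxn6 on the opposite strand.

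The double-positive fraction was also lower than the PECAM1-only fraction for many members. There 18 members were lower and 2 higher, again Cdc6 and Tk1, and 23 did not pass, beside 16.4% lower and 21.8% higher of all tested genes. The median log2 fold change was -0.34 (all genes -0.01), and both double-positive libraries lay below both PECAM1-only libraries for 31 members and above for 2, beside 35.5% and 36.2% of all genes. All 6 MCM genes were lower, from -0.95 for Mcm6 (edgeR adjusted p = 4.53e-05) to -0.54 for Mcm4 (edgeR adjusted p = 0.0067). Rpa1 (-0.94), Gins1 (-0.88), Pole2 (-0.83), Pola1 (-0.82), Lig1 (-0.77), Pole (-0.75), Mcm10 (-0.74) and Cdt1 (-0.73) followed. Of the 20 calls 12 were kept in all settings. Those of Orc5, Prim1, Mcm4, Mcm7, Pold1, Pole2 and Rpa2 were lost without 1 of the libraries compared, with an edgeR adjusted p of at most 0.461, reached by Orc5 without PECAM1-only library 1. This comparison shares the PECAM1-only libraries with the one above, so the overlap of their calls is not independent.

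Between the PDGFRa-positive fractions the differences were smaller. In the PDGFRa-only against the double-positive fraction, 7 members were lower, none was higher and 36 did not pass, where 11.7% of all tested genes were lower and 5.94% higher. The 7 were Pola1 (-0.82, edgeR adjusted p = 0.00428), Rpa1 (-0.67, edgeR adjusted p = 0.00852), Mcm10 (-0.56, edgeR adjusted p = 0.0183), Mcm3 (-0.54, edgeR adjusted p = 0.0199), Mcm2 (-0.54, edgeR adjusted p = 0.0204), Mcm6 (-0.53, edgeR adjusted p = 0.0226) and Pole (-0.47, edgeR adjusted p = 0.0456). At an unadjusted p under 0.05, 1 member was higher in edgeR (Gmnn), and DESeq2 called none higher and 6 lower after adjustment. The median was -0.16 beside 0.00 for all genes. Both PDGFRa-only libraries lay below both double-positive libraries for 16 members and above for 5, beside 30.2% and 27.3% of all genes. These calls rest on the double-positive libraries: without library 1 or without library 2 of that fraction, 1 member was called lower. No member kept its call in all settings.

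By mean level, 29 of the 43 tested members ran from PECAM1-only over double-positive down to PDGFRa-only, and 5 ran the opposite way (Orc4, Cdc6, Rrm1, Tyms and Tk1). Only for Cdc6 and Tk1 among these 5 did a step pass the test. The double-positive mean lay between the others for 34 members (79.1%), close to the 76.1% of all tested genes. All 3 steps passed for 7 members, Mcm2, Mcm3, Mcm6, Mcm10, Pola1, Pole and Rpa1. These are the members called lower between the PDGFRa-positive fractions, 16.3% of those tested, beside 11.7% of all tested genes. None of them kept that call in all settings. Another 11 members, among them Mcm4, Mcm5, Mcm7, Cdt1, Gins1 and Lig1, were lower in both PDGFRa-positive fractions without a called step between these, and 6 (Orc1, Rfc1, Rfc3, Rfc4, Rrm2 and Chaf1b) passed only in the PDGFRa-only against PECAM1-only comparison. The shares of all tested genes with these full orders and these combinations of calls are not given here, so the counts describe the members only.

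Ratios of raw counts within a library show how the balance of members shifted without any scaling between libraries. The ratio of Mcm6 to Cdc6, the ring to its loader, was 7.03 and 7.15 in the PECAM1-only, 2.41 and 2.18 in the double-positive and 1.204 and 1.29 in the PDGFRa-only libraries, a mean 5.67-fold higher in the first than in the last. The ratio of Pola1 to Pola2 was 1.90 and 1.97, 1.08 and 1.40, and 0.493 and 0.677 in the same order. The ratio of Cdc45 to Mcm10 ran the other way, with means of 0.212 in the PECAM1-only, 0.284 in the double-positive and 0.541 in the PDGFRa-only fraction. For these 3 ratios the fractions did not overlap. That was also so for some other pairs computed, among them Mcm2 to Orc6 and Rpa1 to Rpa2, but not for every pair.

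The ratios of Cdt1 to Gmnn and Tk1 to Tyms moved less, though for Cdt1 to Gmnn too the fractions did not overlap. Cdt1 to Gmnn, the loader to its inhibitor, was 2.34 and 2.38 in the PECAM1-only, 1.85 and 2.02 in the double-positive and 1.71 and 1.19 in the PDGFRa-only libraries. Tk1 to Tyms, the salvage to the de novo source of thymidylate, was 0.372 and 0.421, 0.536 and 0.734, and 0.618 and 0.702. For Tk1 to Tyms the PECAM1-only libraries stood below the rest and the PDGFRa-positive fractions overlapped. The pairs were chosen after the values were seen, and no test was made.

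**Figure D4:**
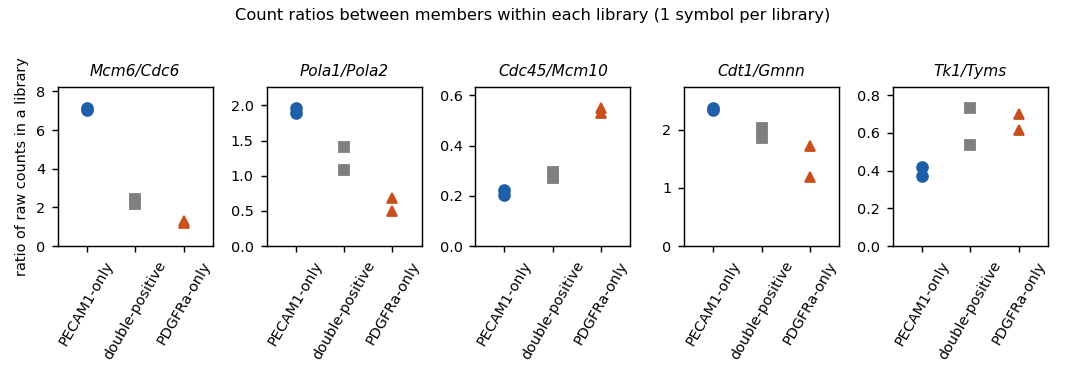
Ratio of raw counts of 2 members within each library (y axis, from 0) for 5 pairs, by fraction (x axis); each symbol is 1 library. Mcm6 to Cdc6 lies at 7.03 and 7.15 in the PECAM1-only fraction and at 1.204 and 1.29 in the PDGFRa-only fraction, and Cdc45 to Mcm10 runs the opposite way.

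Against the PECAM1-only fraction, genes of the same pathways outside the 44 members gave a like picture for replication and a more divided one for nucleotides. Of 38 tested other replication genes, 21 were lower and 3 higher in the PDGFRa-only against the PECAM1-only fraction (median -0.59), 12 and 1 in the double-positive fraction (median -0.33), and 5 and 0 between the PDGFRa-positive fractions (median -0.21). As shares, 55.3%, 31.6% and 13.2% were lower, beside 28.8%, 16.4% and 11.7% of all tested genes. The last share was near that of all genes. The 4 with the smallest p were Nasp, a histone chaperone (-1.90 ± 0.16, edgeR adjusted p = 2.41e-09), Ticrr, which brings Cdc45 to the loaded ring (-1.48 ± 0.17, edgeR adjusted p = 2.02e-07), Top2a, a topoisomerase (-1.32 ± 0.17, edgeR adjusted p = 8.94e-07), and Supt16, a subunit of the histone chaperone FACT (-1.27 ± 0.18, edgeR adjusted p = 3.42e-06).

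Of 38 tested other nucleotide genes, 16 were lower and 7 higher in the PDGFRa-only fraction (median -0.37), 16 and 5 in the double-positive fraction (median -0.37), and 4 and 3 between the PDGFRa-positive fractions (median -0.07). As shares, 42.1%, 42.1% and 10.5% were lower, beside 28.8%, 16.4% and 11.7% of all tested genes. Those higher were 18.4%, 13.2% and 7.9%, beside 30.1%, 21.8% and 5.94%. Between the PDGFRa-positive fractions both shares were near those of all genes. Prps1 and Prps2, which make the ribose donor of all nucleotides, had the smallest p. Prps1 had 144 and 119 CPM in the PECAM1-only, 44.2 and 42.3 CPM in the double-positive and 15.2 and 21.4 CPM in the PDGFRa-only libraries (7.11-fold lower, -2.83 ± 0.20, edgeR adjusted p = 1.54e-10). Prps2 was 6.95-fold lower (-2.80 ± 0.20, edgeR adjusted p = 1.57e-10). Cad, which starts pyrimidine synthesis, was 2.77-fold lower (-1.47 ± 0.18, edgeR adjusted p = 3.63e-07), and Aprt, which salvages adenine, was 2.71-fold higher, with 63.0 and 62.9 CPM, 126 and 111 CPM, and 177 and 164 CPM in the same order (1.44 ± 0.16, edgeR adjusted p = 1.46e-07).

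Among 18 E2F and RB genes, which control the expression of replication genes, 10 were lower and 2 higher in the PDGFRa-only against the PECAM1-only fraction (median -0.68), 8 and 2 in the double-positive fraction (median -0.39) and 4 and 0 between the PDGFRa-positive fractions (median -0.25). As shares, 55.6%, 44.4% and 22.2% were lower, beside 28.8%, 16.4% and 11.7% of all tested genes. The smallest p belonged to Rb1, the retinoblastoma repressor (-2.12 ± 0.21, edgeR adjusted p = 1.91e-08), Tfdp2, a partner of E2F proteins (-1.75 ± 0.18, edgeR adjusted p = 2.82e-08), E2f2 (-2.50 ± 0.30, edgeR adjusted p = 3.32e-07) and Rbl2, a relative of Rb1 (-1.55 ± 0.23, edgeR adjusted p = 5.57e-06). E2f2 is known as an activator, so repressors and an activator stood among the lower genes.

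Mitosis genes act in a later step of the cycle, and their calls spread differently over the comparisons. Of 30, 22 were lower and 1 higher in the PDGFRa-only against the PECAM1-only fraction (median -0.61), 6 and 0 in the double-positive against the PECAM1-only fraction (median -0.22), and 15 and 0 in the PDGFRa-only against the double-positive fraction (median -0.48). For the 43 members the same counts of lower genes were 24, 18 and 7. In percent of tested genes, 41.9% of members and 20.0% of mitosis genes were lower in the double-positive against the PECAM1-only fraction. The mitosis share was near the 16.4% of all tested genes called lower there. In the PDGFRa-only against the PECAM1-only fraction, 73.3% of mitosis genes were lower, beside 28.8% of all tested genes. Between the PDGFRa-positive fractions, the 15 of 30 stood beside 11.7% of all tested genes. The difference between the lists was not tested. Nusap1, a spindle protein, showed the smallest p of the list, with 170 and 166 CPM in the PECAM1-only, 81.6 and 88.8 CPM in the double-positive and 26.9 and 27.1 CPM in the PDGFRa-only libraries (-2.64 ± 0.17, edgeR adjusted p = 4.08e-11). Bub1b (-1.69), Cenpf (-1.77) and Prc1 (-1.27) followed.

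**Figure D5:**
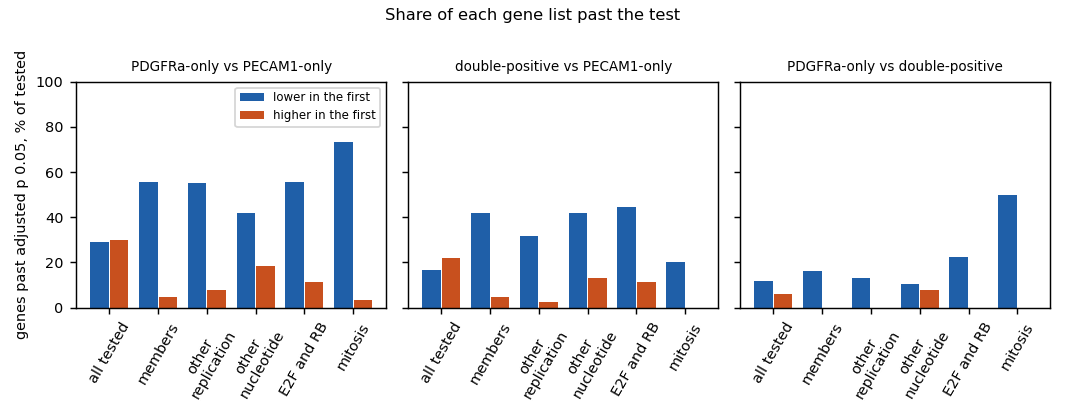
Percent of tested genes (y axis, from 0 to 100) called lower (blue) or higher (orange) in the first-named fraction at an edgeR adjusted p below 0.05, for all tested genes, the members and 4 other lists (x axis), in the 3 comparisons. The members' lower share is 55.8%, 41.9% and 16.3% from left to right, beside 28.8%, 16.4% and 11.7% of all tested genes. The mitosis genes called lower are 22, 6 and 15 of 30.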

How the data were processed

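RNA of 3 sorted ESC fractions was sequenced in 6 libraries, 2 per fraction. The authors deposited unnormalized raw counts for each Ensembl gene and a table of RPKM values, preprocessed in a way not stated. HTSeq 0.5.4p3, TopHat2 2.0.8b, Bowtie2 2.1.0, cutadapt 1.2.1 and the build GRCm38 are named, without role or order, per the submitters' processing notes. Whether counting used strand is not given in the sources used here. Symbols, exon lengths and overlaps came from GENCODE M21 (GRCm38), and promoters from RefSeq. Copies of members were sought with blastn 2.17.0, with at least 400 aligned bases.

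From the deposited counts, edgeR 4.0.16 in R 4.3.3 kept 13909 genes (filterByExpr, minimum count 10), scaled libraries by TMM and fitted a robust quasi-likelihood model with 1 mean per fraction to all 6 libraries (3 residual degrees of freedom, biological coefficient of variation 13.5%). Tests were two-sided, with Benjamini-Hochberg adjustment over all tested genes and a threshold of 0.05. "edgeR adjusted p" means this throughout, a log2 fold change is positive when the first-named fraction is higher, and it is given ± SE. Levels are CPM, per kb of merged annotated exons where genes are compared. DESeq2 1.42.0 and limma 3.58.1 on the deposited log2(RPKM + 1) and log2(RPKM + 0.1) values served as alternatives, beside other scalings, filters, a replicate block and leaving out each library. Scripts were tested on simulated data.

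All 44 members could be named, and the 4 genes with the smallest p in the PDGFRa-only against PECAM1-only comparison of each other list. The members and lists were chosen with earlier results of these data known. The count ratios and the setting that adds copies were chosen after seeing the data. The RNA was amplified, and no molecular identifiers are described.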

Additional observations from a re-analysis of the deposited data

How the results depend on the processing

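No called member changed sign in any of the 17 alternatives. Members lower in the PDGFRa-only against the PECAM1-only fraction numbered 19 to 31 (24 as reported) and in the double-positive against the PECAM1-only fraction 13 to 27 (18 as reported). In limma on RPKM, 1 member was higher in each of these comparisons with either pseudocount, since Tk1 did not pass. In the PDGFRa-only against the double-positive fraction, lower members numbered 1 to 8 when libraries were left out (7 as reported), 0 with RPKM + 1 and 1 with RPKM + 0.1, and higher members 0 to 1, the last being Gmnn without PDGFRa-only library 1.

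Among the 76 tested replication and nucleotide genes outside the members, those higher in the PDGFRa-only against the PECAM1-only fraction were 6 with either RPKM pseudocount (10 as reported). In the double-positive against the PECAM1-only fraction, 47 were lower with library-size scaling and 9 to 32 when libraries were left out (28 as reported, 9 without PECAM1-only library 1 or without double-positive library 2), and 3 to 6 were higher (6 as reported). In the PDGFRa-only against the double-positive fraction, 0 to 5 were higher when libraries were left out and 1 with either RPKM pseudocount (3 as reported), while 15 were lower with library-size scaling, 5 to 14 when libraries were left out, 4 with RPKM + 1 and 5 with RPKM + 0.1 (9 as reported). The causes were not tested.

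With upper-quartile scaling the median of all genes moved to -0.20 in the PDGFRa-only and -0.17 in the double-positive fraction, each against the PECAM1-only fraction, and with library-size scaling to -0.28 and -0.22. The higher share of all called genes moved from 51.1% to 41.5% and 37.9% in the first comparison and from 57.0% to 43.3% and 39.9% in the second, and in the PDGFRa-only against the double-positive fraction from 33.7% to 22.0% with library-size scaling. Of 731 alternative values in each comparison, 48 (PDGFRa-only against PECAM1-only), 35 (double-positive against PECAM1-only) and 53 (PDGFRa-only against double-positive) had the other sign than the reported value, with neither past the test.

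With a replicate block, members numbered 24 lower and 2 higher, 19 lower and 2 higher, and 7 lower and 0 higher, with Gmnn added in the double-positive against the PECAM1-only fraction (adjusted p = 0.0448). Deviations of same-numbered libraries correlated with r = -0.033, 0.160 and 0.204 between fractions. From 2 libraries per fraction, these values cannot show whether same-numbered libraries share a culture or sort. The labels do not say that the numbers pair libraries, so they were not taken as pairs. With 2 libraries per fraction, small differences cannot be told from the spread.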
